A study of Mus musculus with 8 samples.

Results

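The genes described here are 10 genes used to mark alternatively activated macrophages, together with the enzymes that compete for arginine: Arg1, Arg2, Nos2, Retnla, Chi3l1, Chi3l3, Chi3l4, Mrc1, Cd163 and Clec10a. They were chosen by gene symbol, and all 10 were found among the 22740 protein-coding genes listed for 8 mouse skin libraries. Chi3l1, Chi3l3 and Chi3l4 are the older symbols of Chil1, Chil3 and Chil4. All 10 passed the filter on low counts that left 15163 genes for testing, although Chi3l4 had counts in lesional libraries only.

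The study asked how butyrate, a short-chain fatty acid made by gut bacteria from fermentable fibre, alters mouse skin before and after contact with house dust mite (HDM) allergen. All 8 mice were BALB/c females kept on a low-fibre diet, and RNA was taken from whole dorsal skin. Baseline CTL mice drank plain water and baseline butyrate mice drank 400 mM sodium butyrate, and neither group was exposed to allergen. Lesional CTL and lesional butyrate mice drank the same for 2 weeks beforehand and then throughout, while they received 15 μg of HDM extract on the shaved back, 4 times over 2 weeks, under an occlusive patch. Mice were 6 to 8 weeks old. Each group held 2 mice. Baseline and lesional skin carried different set numbers in the labels, so allergen exposure and set cannot be told apart. No library came from skin that was patched without allergen, so the patch cannot be told apart from the allergen either.

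Macrophages that meet interleukin (IL)-4 or IL-13 switch on, through the transcription factor STAT6, a set of genes known as alternative activation, with arginase 1, the resistin-like protein encoded by Retnla and the chitinase-like proteins among the best known in mice. Arginases turn arginine into ornithine, which feeds polyamine and proline synthesis, whereas nitric oxide synthases turn the same arginine into nitric oxide, a product of classically activated macrophages. Several of these genes are also used by other cells of skin: keratinocytes and myeloid cells of several kinds can express arginases or chitinase-like proteins.

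The libraries held 18004136 to 21085544 counts. Levels are given as CPM, counts relative to the size of the library, after library sizes were scaled by the trimmed mean of M-values (TMM). The 2 baseline butyrate mice were unlike each other: 3757 of 14198 genes differed more than 2-fold between them, against 276 in baseline CTL, 203 in lesional CTL and 683 in lesional butyrate skin. Baseline butyrate replicate 3 had the lowest summed macrophage markers of the 8 libraries (513 CPM, against 892 to 1730 in the others). Its summed keratinocyte markers were also the lowest (10665 CPM, against 15027 to 26174), although Ivl and Dsc1 among them were higher than in the other baseline mice. Results of the genes named here whose calls changed when this mouse was left out are therefore given both ways. Csf1r, the receptor that macrophages need for survival, was present in every library at 41.1 to 161 CPM. In whole skin, fewer cells of a type and less RNA per cell cannot be told apart.

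Chi3l3 and Chi3l4 are neighbouring copies whose levels nevertheless differed in lesional CTL skin. The Retnla promoter carries both motifs that are textbook landmarks of its induction by IL-4. For these reasons the promoter sequences of these 3 genes are shown first. They are the bases just before the annotated start of each gene, from RefSeq on GRCm38.p6, at chr3:106167565-106167764 (minus strand) for Chi3l3, chr3:106219508-106219707 (minus strand) for Chi3l4 and chr16:48842359-48842550 (plus strand) for Retnla. Capitals mark matches to TTC and GAA separated by 4 bases, the spacing preferred by STAT6, to TTCNNNGAA, the spacing of other STAT factors, or to the C/EBP-type letters TTGCNNAA, searched on both strands.
Chi3l3: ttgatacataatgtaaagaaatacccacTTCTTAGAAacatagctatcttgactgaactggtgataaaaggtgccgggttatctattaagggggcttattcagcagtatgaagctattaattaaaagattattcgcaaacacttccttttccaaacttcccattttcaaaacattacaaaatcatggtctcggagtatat
Chi3l4: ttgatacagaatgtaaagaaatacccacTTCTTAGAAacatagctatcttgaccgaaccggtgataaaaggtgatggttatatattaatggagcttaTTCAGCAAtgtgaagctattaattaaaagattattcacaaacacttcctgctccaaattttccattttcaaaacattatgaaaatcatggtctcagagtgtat
Retnla: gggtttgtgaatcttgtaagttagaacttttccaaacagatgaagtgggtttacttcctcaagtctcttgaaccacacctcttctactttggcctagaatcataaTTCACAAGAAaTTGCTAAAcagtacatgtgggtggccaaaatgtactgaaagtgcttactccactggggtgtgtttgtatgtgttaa
The Chi3l3 and Chi3l4 stretches were identical at 181 of 199 aligned bases (91%), and both held TTCTTAGAA at the same place in the stretch. Retnla held TTCACAAGAA followed by TTGCTAAA. RefSeq windows of 300 bases were at hand for 6 of the 10 genes, and those of Chi3l1, Mrc1 and Cd163 held none of the 3 patterns. Among 32851 such windows of all genes, 6.95% held the STAT6 spacing, 8.3% held TTCNNNGAA and 10.8% held TTGCNNAA, so a match alone describes the letters and no more.

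Arg1 (ENSMUSG00000019987) lies on the minus strand of chromosome 10 from 24915221 to 24927484 on GRCm38 and encodes the cytosolic arginase. Its level was 41.7 and 32.2 CPM in baseline CTL skin, 34.9 and 33.8 CPM in baseline butyrate skin, 8.81 and 10.9 CPM in lesional CTL skin, and 11.1 and 9.07 CPM in lesional butyrate skin. All 4 lesional mice were below all 4 baseline mice, and the butyrate and water mice overlapped within each condition. Arg1 fell 3.74-fold with HDM exposure in CTL mice (log2 fold change -1.90 ± 0.21 SE, FDR = 0.0263, edgeR quasi-likelihood test with Benjamini-Hochberg adjustment). It fell 3.40-fold in butyrate mice (log2 fold change -1.77 ± 0.21 SE, FDR = 0.0709, same test). In lesional skin the butyrate effect on Arg1 was 0.03 on the log2 scale, with a 95% interval from -0.47 to 0.53.

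Arg1 thus fell in the skin in which Chi3l1 and Chi3l4 rose. Keratinocyte markers also differed between these groups: their sum was 26174 and 25014 CPM in baseline CTL skin but 15115 and 15027 CPM in lesional CTL skin. The markers did not move together, with 4 of the 10 higher and 6 lower by log2 fold change. Krt10 was at 6950 and 6666 CPM in baseline CTL and 835 and 1697 CPM in lesional CTL skin. Krt14 was at 2768 and 2809 CPM and at 5919 and 4779 CPM in the same groups. Relative to that sum, Arg1 was 0.159% and 0.129% in baseline CTL skin and 0.0583% and 0.0728% in lesional CTL skin. In butyrate mice it was 0.143% and 0.317% at baseline and 0.0435% and 0.0396% in lesional skin, where the marker sum was 25553 and 22905 CPM. The lesional mice were again below the baseline mice on this relative scale, which was chosen after the values were seen and carries no test. The part of other cell types in the Arg1 result was not tested.

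**Figure D1:**
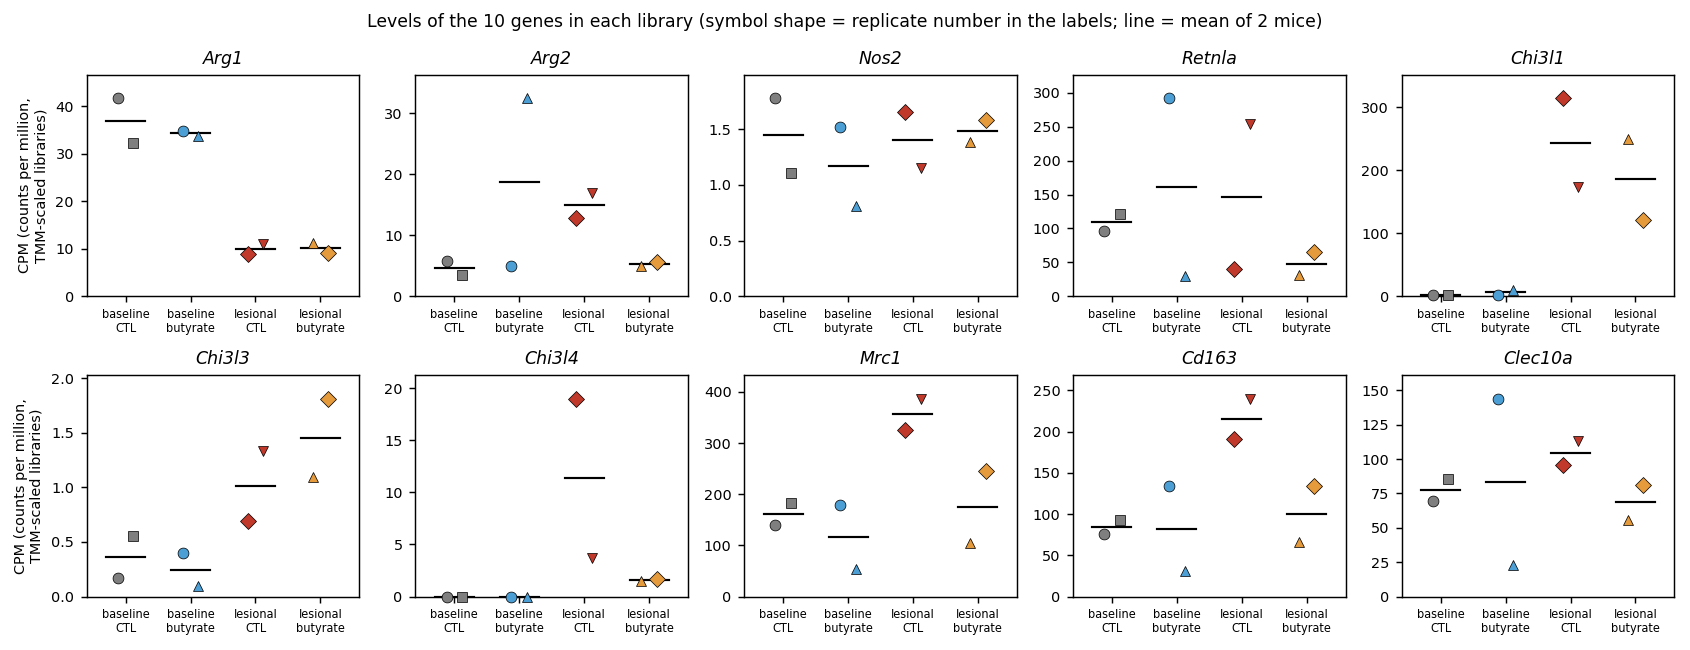
Level of each of the 10 genes in CPM (vertical axis, linear from 0, own scale per gene) in the 4 groups (horizontal axis), with a symbol per mouse and a line at the mean of 2 mice. Arg1 is lower in all 4 lesional mice, at 8.81 to 11.1 CPM, while Chi3l1 is above 120 CPM in each of them, and baseline butyrate replicate 3 (triangle) stands apart for Arg2, Mrc1, Cd163 and Clec10a.

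Arg2 (ENSMUSG00000021125; chromosome 12, 79130777 to 79156301, plus strand) encodes the mitochondrial arginase. It was at 5.72 and 3.44 CPM in baseline CTL skin, 12.9 and 17.0 CPM in lesional CTL skin, and 5.01 and 5.68 CPM in lesional butyrate skin. In baseline butyrate skin it was at 4.90 CPM in replicate 1 and 32.5 CPM in replicate 3, the highest value of all 8 mice. Lesional CTL mice were above both baseline CTL and lesional butyrate mice without overlap, yet neither difference passed the test when all mice shared 1 estimate of spread. The log2 fold change was 1.70 ± 0.81 SE with HDM in CTL mice (FDR = 0.30, edgeR quasi-likelihood test) and -1.48 ± 0.80 SE for butyrate in lesional skin (FDR = 1, same test). Without baseline butyrate replicate 3 the same differences had an FDR of 0.0095 and 0.0884. Exons of Arg2 overlap the spans of Vti1b and Gm48780, genes on the other strand whose own exons were not compared. The stranded counting that keeps such genes apart was named by the deposited table and not stated for the library kit.

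Nos2 (ENSMUSG00000020826; chromosome 11, 78920787 to 78960254) encodes the inducible nitric oxide synthase, the usual counterpart of Arg1 in classically activated macrophages. It was low in every mouse, at 1.78 and 1.11 CPM in baseline CTL, 1.52 and 0.810 CPM in baseline butyrate, 1.65 and 1.15 CPM in lesional CTL, and 1.38 and 1.58 CPM in lesional butyrate skin. All 4 groups overlapped. The HDM effect in CTL mice was -0.04 on the log2 scale, with a 95% interval from -1.13 to 1.04.

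Other enzymes that supply or use arginine were read from a list of 25 genes, of which 23 were tested. In lesional CTL against baseline CTL skin 3 of the 23 rose and none fell, against 2.37% of all tested genes called higher and 1.21% called lower, and the median log2 fold change of the list was 0.30. When baseline butyrate replicate 3 was left out, 7 of the 23 were called higher (Ass1, Ddah1, Gch1, Odc1, Slc7a1, Smox and Srm) and 1 lower (Nos1), against 12.5% of all tested genes called in either direction. Odc1, the enzyme that commits ornithine to polyamines, was at 43.2 and 44.1 CPM in baseline CTL and 185 and 154 CPM in lesional CTL skin (log2 fold change 1.96, FDR = 0.0311, edgeR quasi-likelihood test). Srm, the spermidine synthase (log2 fold change 1.25, FDR = 0.0452), and Smox, the spermine oxidase (log2 fold change 2.29, FDR = 0.0846), rose by the same test. These 3 polyamine enzymes rose in the skin in which Arg1 fell, while Sms, the spermine synthase, was at 34.0 and 29.7 CPM in baseline CTL and 16.7 and 17.6 CPM in lesional CTL skin (FDR = 0.31, same test).

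In lesional butyrate skin Odc1 was at 83.3 and 71.6 CPM, below both lesional CTL mice and above all 4 baseline mice. That butyrate difference was -1.13 on the log2 scale and did not pass the test (FDR = 0.737, edgeR quasi-likelihood test). In butyrate mice none of the 23 passed with HDM, whereas leaving out baseline butyrate replicate 3 gave Ass1, Smox and Srm higher and Nos1 and Sms lower, against 5.94% of all tested genes. No gene of the list passed the test in either butyrate comparison, while without baseline butyrate replicate 3 Odc1 was called lower in lesional butyrate skin. Nos1, the neuronal nitric oxide synthase, was at 38.7 and 24.6 CPM in baseline CTL and 7.31 and 8.45 CPM in lesional CTL skin (log2 fold change -2.01, FDR = 0.165, edgeR quasi-likelihood test), a difference that was called without baseline butyrate replicate 3 and with only the groups compared. Summed skeletal muscle markers differed between the same mice, at 39028 and 47086 CPM and at 16445 and 23096 CPM, and their part in the Nos1 values was not tested.

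**Figure D2:**
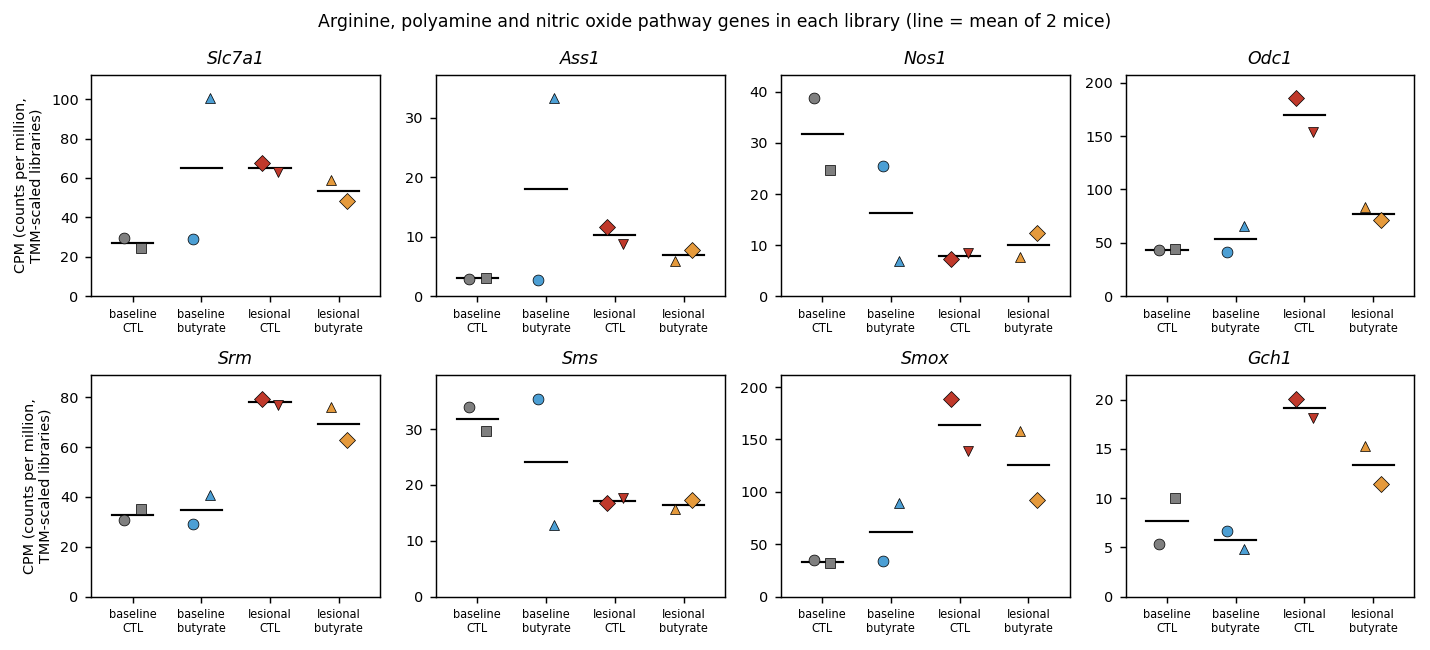
CPM (vertical axis, linear from 0) of 8 genes of arginine uptake, nitric oxide and polyamine metabolism in the 4 groups, with a symbol per mouse and a line at the mean of 2 mice. Odc1 is highest in lesional CTL skin, at 185 and 154 CPM, and Slc7a1 and Ass1 are highest in baseline butyrate replicate 3 (triangle), at 100 and 33.3 CPM.

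Chi3l1 (ENSMUSG00000064246; chromosome 1, 134182176 to 134190181, plus strand) encodes a secreted chitinase-like protein that binds chitin without cutting it. Among the 9 of the 10 genes with counts in every library, it had the largest fold change with HDM. Its level was 2.5 and 1.83 CPM in baseline CTL skin and 314 and 173 CPM in lesional CTL skin. It was 2.14 and 10.3 CPM in baseline butyrate skin, and 249 and 121 CPM in lesional butyrate skin. Every lesional mouse was above every baseline mouse, and lesional CTL and butyrate mice overlapped. Chi3l1 rose 112-fold with HDM in CTL mice (log2 fold change 6.81 ± 0.91 SE, FDR = 0.0372, edgeR quasi-likelihood test). In butyrate mice it was 29.7-fold higher (log2 fold change 4.88 ± 0.82 SE), which missed the threshold (FDR = 0.129, same test) and passed it without baseline butyrate replicate 3 (log2 fold change 6.43, FDR = 0.0261). The butyrate effect in lesional skin was -0.39 on the log2 scale, with a 95% interval from -2.07 to 1.28.

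Chi3l4 (ENSMUSG00000063779; chromosome 3, 106201490 to 106219507) and Chi3l3 (ENSMUSG00000040809; chromosome 3, 106147554 to 106167564) encode the paired chitinase-like proteins Ym2 and Ym1. Chi3l4 had no counts in any of the 4 baseline mice. It was at 19.0 and 3.74 CPM in lesional CTL skin and at 1.53 and 1.72 CPM in lesional butyrate skin. The lesional groups did not overlap, but the lesional CTL mice differed more from each other than the lower of them did from the butyrate mice. Against a floor of 3 counts per library, Chi3l4 was at least 68.2-fold higher in lesional CTL than in baseline CTL skin, a call that passed the test (FDR = 0.0796, edgeR quasi-likelihood test). That bound rested on replicate 4, and for the lower of the lesional CTL mice alone it was 22.4-fold. In butyrate mice it was at least 10.4-fold higher (FDR = 0.277, same test).

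Chi3l3 was at 0.167 and 0.555 CPM in baseline CTL skin. In lesional CTL skin it was scarcer than Chi3l4, at 0.694 and 1.34 CPM. It was at 0.395 and 0.0953 CPM in baseline butyrate and 1.10 and 1.81 CPM in lesional butyrate skin. Lesional mice were above baseline mice in both arms, and the difference did not pass the test in either (FDR = 0.34 and 0.293, edgeR quasi-likelihood test). Lesional butyrate skin thus had more Chi3l3 and less Chi3l4 by group mean than lesional CTL skin, with Chi3l3 overlapping between the groups. Of the 50-base words in their transcripts, 16.9% of those of Chi3l3 also occur in Chi3l4 and 9.95% of those of Chi3l4 occur in Chi3l3, so the split of reads between them is uncertain. Beside the similar promoter letters printed above, their counts differed in lesional CTL skin: Chi3l4 had 356 and 81 counts and Chi3l3 had 13 and 29. In lesional butyrate skin Chi3l4 had 32 and 37 counts and Chi3l3 had 23 and 39. At baseline Chi3l4 had 0 counts, and Chi3l3 had 3 to 10 in CTL and 2 to 7 in butyrate mice.

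Markers of neutrophils and of injured epidermis also differed between these groups. The 14 neutrophil markers summed to 19.8 to 32.4 CPM in the 4 baseline mice, 2834 and 1773 CPM in lesional CTL skin, and 800 and 374 CPM in lesional butyrate skin. The 10 injury-keratinocyte markers summed to 1050 to 3367 CPM at baseline, 9649 and 6427 CPM in lesional CTL skin, and 5499 and 3889 CPM in lesional butyrate skin. Within each lesional group the mouse with the higher neutrophil and injury sums also had more Chi3l1 but less Chi3l3. The largest parts of the neutrophil sum, S100a8 and S100a9, were higher in that mouse, as was Mmp9. Csf3r, Mmp8, Trem1 and Stfa2l1 were higher in the other mouse of each pair. Csf3r, for example, was at 117 and 137 CPM in lesional CTL replicates 4 and 5. For Chi3l4 the mouse with the higher sums was the higher of the lesional CTL pair and the lower of the lesional butyrate pair. The part of these cells in the Chi3l1 and Chi3l4 results was not tested. The genes whose profile over the 8 libraries lay closest to Chi3l1 were Stfa2, Sprr2f and Gsdmc2 (root mean square difference of centred log2 CPM 0.57, 0.72 and 0.82), and those closest to Chi3l4 were Il24, Stfa1 and Sprr2j-ps (each 0.54).

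Retnla (ENSMUSG00000061100; chromosome 16, 48842551 to 48844461, plus strand) encodes a secreted resistin-like protein, also called FIZZ1 or RELMα. It was at 96.0 and 122 CPM in baseline CTL, 292 and 30.6 CPM in baseline butyrate, 40.4 and 253 CPM in lesional CTL, and 31.1 and 65.0 CPM in lesional butyrate skin. The mice of a pair differed most in baseline butyrate and lesional CTL skin, and the groups overlapped in all 4 comparisons. No comparison passed the test. The HDM effect in CTL mice was 0.43 ± 1.15 SE and the butyrate effect in lesional skin -1.61 ± 1.18 SE on the log2 scale (FDR = 0.852 and 1, edgeR quasi-likelihood test). The 95% intervals ran from -2.35 to 3.21 and from -4.46 to 1.24.

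Mrc1 (ENSMUSG00000026712; chromosome 2, 14229392 to 14332057, plus strand) encodes the mannose receptor CD206. It was at 140 and 183 CPM in baseline CTL, 326 and 387 CPM in lesional CTL, and 105 and 245 CPM in lesional butyrate skin. Baseline butyrate mice had 178 and 53.6 CPM. Lesional CTL mice were above all 6 others. The HDM effect in CTL mice was 1.14 ± 0.62 SE on the log2 scale and did not pass the test (FDR = 0.349, edgeR quasi-likelihood test), and it passed without baseline butyrate replicate 3 (FDR = 0.0732). The butyrate effect in lesional skin was -1.03 ± 0.62 SE (FDR = 1, same test).

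Cd163 (ENSMUSG00000008845; chromosome 6, 124304656 to 124330527, plus strand) encodes the scavenger receptor for haemoglobin bound to haptoglobin. Its level was 76.5 and 93.2 CPM in baseline CTL, 134 and 31.2 CPM in baseline butyrate, 191 and 240 CPM in lesional CTL, and 65.6 and 134 CPM in lesional butyrate skin. Lesional CTL mice were again above the other 6. The log2 fold change was 1.34 ± 0.67 SE with HDM in CTL mice (FDR = 0.318, edgeR quasi-likelihood test; 0.0325 without baseline butyrate replicate 3) and -1.11 ± 0.67 SE for butyrate in lesional skin (FDR = 1). Among 14197 candidate genes, Cd163 was the nearest to Mrc1 in profile (root mean square difference 0.16), followed by Ms4a6d and Pirb.

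Clec10a (ENSMUSG00000000318; chromosome 11, 70156197 to 70170834, plus strand) encodes a galactose-type lectin of macrophages and dendritic cells, and shares 8.49% of its 50-base words with its neighbour Mgl2. It was at 69.3 and 85.5 CPM in baseline CTL, 144 and 22.7 CPM in baseline butyrate, 95.3 and 113 CPM in lesional CTL, and 55.8 and 81.4 CPM in lesional butyrate skin. Lesional CTL mice were above baseline CTL and lesional butyrate mice by a small margin. Neither difference passed the test, with log2 fold changes of 0.43 ± 0.74 SE and -0.60 ± 0.74 SE (FDR = 0.765 and 1, edgeR quasi-likelihood test). Its nearest profiles were those of Aox3, C1qc and March1.

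Mrc1 and Cd163 were also set against general macrophage markers. The 16 measured macrophage markers summed to 892 and 1226 CPM in baseline CTL, 1650 and 513 CPM in baseline butyrate, 1535 and 1730 CPM in lesional CTL, and 922 and 1517 CPM in lesional butyrate skin. Relative to that sum, Mrc1 was 15.7% and 14.9% in baseline CTL, 10.8% and 10.4% in baseline butyrate, 21.3% and 22.4% in lesional CTL, and 11.4% and 16.2% in lesional butyrate skin. On that scale baseline butyrate replicate 3 no longer stood apart for Mrc1. Cd163 was 12.4% and 13.9% of the sum in lesional CTL skin and 6.07% to 8.81% in the other 6 mice. Clec10a was 6.21% and 6.54% in lesional CTL skin, inside the range of 4.42% to 8.72% of the others. The markers in the sum did not move together. In lesional CTL against baseline CTL skin 12 of the 16 were higher and 4 lower by log2 fold change. Lyz2, the largest part of the sum, was at 241 and 296 CPM in baseline CTL and 449 and 503 CPM in lesional CTL skin. Mertk was at 21.4 and 21.4 CPM and at 11.6 and 11.1 CPM in the same groups. The ratios to this sum were chosen after the values were seen and carry no test.

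**Figure D3:**
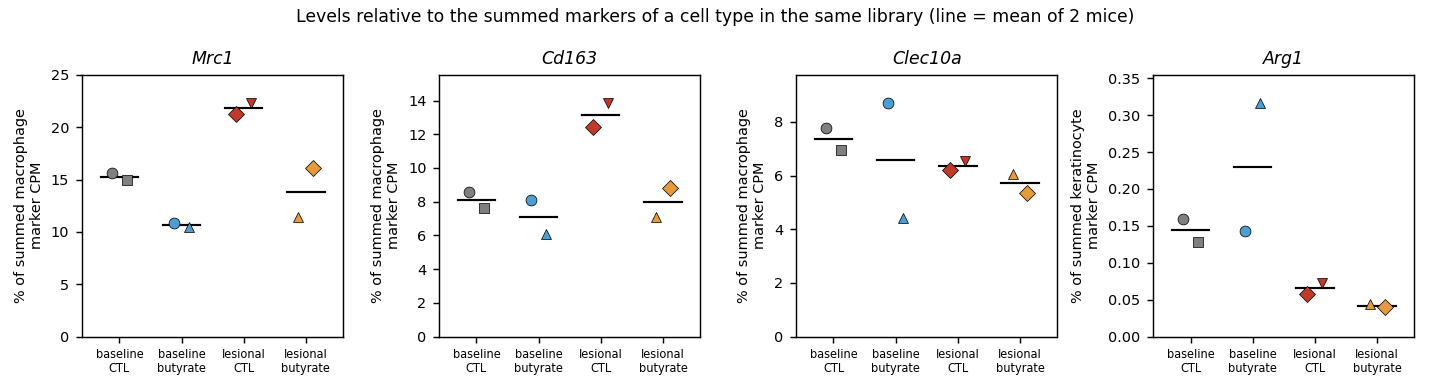
Mrc1, Cd163 and Clec10a as a percentage of the summed CPM of 16 macrophage markers, and Arg1 as a percentage of the summed CPM of 10 keratinocyte markers (vertical axes, linear from 0), in the 4 groups, with a symbol per mouse and a line at the mean of 2 mice. Mrc1 and Cd163 are highest in the 2 lesional CTL mice, at 21.3% and 22.4% and at 12.4% and 13.9%, while Clec10a is not.

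In lesional CTL against baseline CTL skin, 3 of the 10 genes passed the test, Chi3l1 and Chi3l4 higher and Arg1 lower, against 3.58% of all tested genes. The groups did not overlap for 8 of the 10, with 7 higher and 1 lower, where 75.2% of all tested genes did not overlap (36.7% higher and 38.5% lower). Without baseline butyrate replicate 3, 6 passed, Arg2, Mrc1 and Cd163 being added, against 12.5% of all genes. The same number passed with only the groups compared (12.9% of all genes) and without both baseline butyrate mice (12.4%). The calls of the 10 genes did not hold when either baseline CTL or either lesional CTL mouse was left out, which leaves 1 mouse in a group. Nearly all calls over all tested genes were lost there too. Without lesional butyrate replicate 3 or 4 the calls of Chi3l1 and Chi3l4 were lost, as were most of those over all tested genes. With any 1 mouse left out, the log2 fold change of Arg1 was -2.08 to -1.70.

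In lesional butyrate against baseline butyrate skin, 1 of the 10 genes passed, Arg1, against 0.35% of all tested genes (0.0725% lower), with groups that did not overlap for 4 of the 10 against 32.5% of all genes. Without baseline butyrate replicate 3, Arg1, Chi3l1 and Clec10a passed, against 5.94% of all genes. By DESeq2 3 of the 10 passed, against 4.6% of all genes. With either baseline CTL mouse or any lesional mouse left out, the Arg1 call did not hold and no other of the 10 took its place. Most calls over all tested genes were lost there too.

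In lesional butyrate against lesional CTL skin none of the 10 passed, against 0% of all tested genes. Of the 15163 tested genes 734 had an unadjusted p below 0.05, Chi3l4 among them (FDR = 0.952, edgeR quasi-likelihood test). With no effect at all, a share of 0.05 of genes would be expected below that p. The smallest FDR of any gene was 0.289 by the same test. Groups did not overlap for 5 of the 10, all lower with butyrate: Arg2, Chi3l4, Mrc1, Cd163 and Clec10a. Of all tested genes 44.9% did not overlap and 22.5% were lower without overlap. The median log2 fold change of the 10 was -0.81, against -0.01 over all tested genes. Without baseline butyrate replicate 3, Arg2 passed, against 1.22% of all genes, and it passed without both baseline butyrate mice (1.25%).

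In baseline butyrate against baseline CTL skin none of the 10 passed, against 0% of all tested genes, and none had groups that did not overlap, against 29.7% of all genes. Of the 15163 tested genes 529 had an unadjusted p below 0.05, again to be read against a share of 0.05. Arg2 was among them (FDR = 0.714, edgeR quasi-likelihood test), and its log2 fold change of 2.03 became 0.10 without baseline butyrate replicate 3. In the test of the difference between the butyrate effects in lesional and baseline skin none of the 10 passed (0% of all tested genes). Here 703 of the 15163 had an unadjusted p below 0.05. Arg2 came nearest at -3.51 ± 1.14 SE (FDR = 0.84, same test), and was at -1.58 without that mouse. With baseline butyrate replicate 1 left out instead, so that replicate 3 stood alone for its group, 5 of the 10 passed for butyrate at baseline, 7 for HDM in butyrate mice and 3 for the difference between the effects, against 24.1%, 19.1% and 20.9% of all genes. For HDM in CTL mice 6 of the 10 then passed, against 12.3% of all genes.

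**Figure D4:**
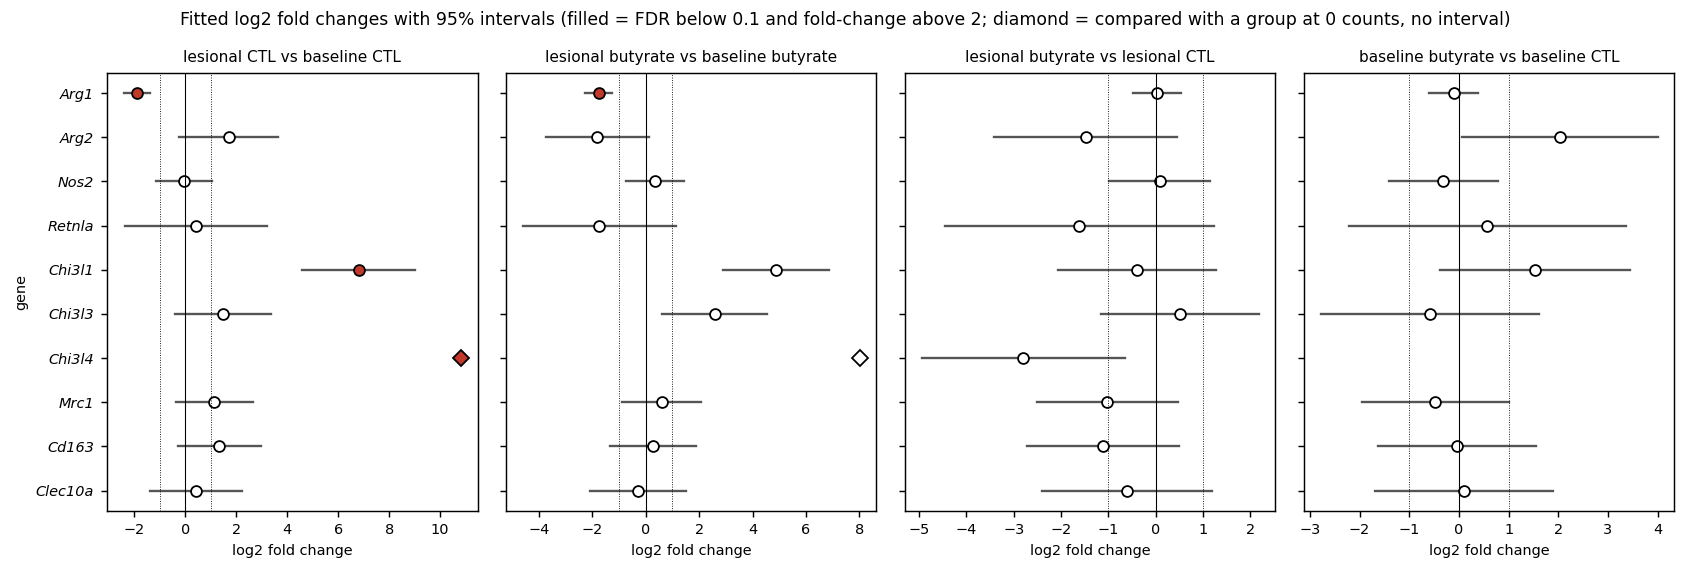
Log2 fold changes (horizontal axes) of the 10 genes (vertical axis) in 4 comparisons, with 95% intervals from the edgeR fit, filled where FDR was below 0.1 and fold-change above 2, and dotted lines at 2-fold. Arg1 is filled on the lower side in both HDM comparisons, at -1.90 and -1.77, and no gene is filled in either butyrate comparison.

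Compared between genes per kilobase of exon, Retnla had the highest mean of the 10 in every group, at 182 CPM per kb in baseline CTL and 245 CPM per kb in lesional CTL skin. Clec10a (26.7 CPM per kb) and Mrc1 (25.3) came next in baseline CTL skin, with overlapping ranges, and Arg1 (16.6) and Cd163 (15.5) also overlapped each other. In lesional CTL skin Chi3l1 was second at a mean of 86.9 CPM per kb, with a range of 61.7 to 112 that overlapped that of Retnla, 67.4 to 423. Its lower value was just above the higher mouse for Mrc1 at 60.7. In lesional butyrate skin the ranges of Retnla (52.0 to 109) and Chi3l1 (43.2 to 89.0) overlapped too. Arg1 went from rank 4 in baseline CTL skin to rank 7 in lesional CTL skin, at 4.43 CPM per kb, below Arg2 at 10.5. Arg2 was below Arg1 in baseline CTL skin, at 3.21 CPM per kb. In lesional butyrate skin the means of Arg1 and Arg2 were 4.53 and 3.74 CPM per kb, without overlap.

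Upstream signals of alternative activation were read from 18 genes. In CTL mice 4 of the 18 rose with HDM, against 2.37% of all tested genes: Il13 and Il13ra2, the cytokine and its decoy receptor, Il4ra, the receptor chain shared by IL-4 and IL-13, and Socs1, a feedback inhibitor (log2 fold changes 5.4, 2.67, 1.94 and 1.51, FDR = 0.0672, 0.0372, 0.0458 and 0.045, edgeR quasi-likelihood test). Il13 was scarce, at 0.111 and 0 CPM in baseline CTL and 3.63 and 1.62 CPM in lesional CTL skin, so the size of its fold change is uncertain. Il4ra was at 59.4 and 79.7 CPM in baseline CTL, 273 and 262 CPM in lesional CTL, and 104 and 91.1 CPM in lesional butyrate skin. The butyrate difference in Il4ra was -1.45 on the log2 scale (FDR = 0.737, same test), and it was called without baseline butyrate replicate 3 and with only the groups compared. Stat6 stayed between 108 and 171 CPM in all 8 mice. Il4 and Il2rg were called higher as well without baseline butyrate replicate 3, where the share of all tested genes that were called also rose. In butyrate mice 1 of the 18 rose with HDM in the fit of all mice, Il13ra2 (log2 fold change 2.84, FDR = 0.0732, same test), against 0.277% of all tested genes. Il13ra2 and Socs1 were called without baseline butyrate replicate 3, a setting with a larger share of calls over all tested genes too. With only the groups compared none of the 17 then tested was called, and neither was any other tested gene.

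Among 26 further genes used as alternative activation markers, 2 rose with HDM in CTL mice, against the same 2.37% of all tested genes: Pdcd1lg2, which encodes PD-L2, and the chemokine gene Ccl8 (log2 fold changes 3.50 and 3.14, FDR = 0.0734 and 0.0948, edgeR quasi-likelihood test). Pdcd1lg2 was scarce, at 0.0556 and 0.278 CPM in baseline CTL and 2.24 and 1.66 CPM in lesional CTL skin. Among 18 classical activation markers 6 rose, among them Il1b, Il6 and Ptgs2 (log2 fold changes 5.23, 4.93 and 3.36, FDR = 0.0294, 0.0372 and 0.0141, same test). Il1b was at 4.56 and 2.55 CPM in baseline CTL, 132 and 136 CPM in lesional CTL, and 19.9 and 25.5 CPM in lesional butyrate skin. Genes of both lists thus rose in lesional CTL skin. Without baseline butyrate replicate 3 these counts were 9 of 26 and 8 of 18 higher, with Il12a lower in the classical list, where 12.5% of all tested genes were called in either direction. In that setting Il1b, Il6 and Ptgs2 were also called lower in lesional butyrate than in lesional CTL skin, against 1.22% of all tested genes.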

How the data were processed

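The deposited table held raw read counts per protein-coding gene; the authors aligned reads with STAR 2.5.2 to GRCm38 and counted them with featureCounts, and the table is named as reverse-stranded. BALB/c reads were thus mapped to a C57BL/6J genome. Groups of 2 mice came from the labels. All 8 libraries (18004136 to 21085544 counts) were fitted together with edgeR 4.0.16 in R 4.3.3 (TMM, filterByExpr with a minimum count of 10, robust quasi-likelihood, prior count 0.125, 4 residual degrees of freedom). A call required FDR (Benjamini-Hochberg, over all tested genes) below 0.1 with a fold-change above 2. SE is the log2 fold change divided by the root of F. An exact permutation test of 2 against 2 mice cannot give p below 0.333, so none was used. Alternatives were limma 3.58.1 (voom), DESeq2 1.42.0, other scalings, filters and thresholds, and leaving out mice; the fit was tested on simulated data. Named genes were the 10 genes, called or most changed list genes, the 3 nearest profiles, by root mean square difference of centred log2(CPM + 0.5), and abundant cell type markers. The genes and lists were chosen with earlier results of these data known. Gene positions and exon lengths came from GENCODE vM21.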

Additional observations from a re-analysis of the deposited data

How the results depend on the processing

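No paired analysis was possible because in each comparison no more than 1 replicate number occurs in both groups. With 2 mice a group and 4 residual degrees of freedom, calls depended on which mice set the spread. The number of the 10 genes called for HDM in CTL mice, 3 in the fit of all mice, was 6 with only the groups compared, 6 without both baseline butyrate mice, and 0 to 6 with 1 mouse left out. For HDM in butyrate mice it was 1, then 3 by DESeq2, 0 with only the groups compared, 0 at an FDR below 0.05, and 0 to 7 with 1 mouse left out. For butyrate in lesional skin it was 0, then 1 without both baseline butyrate mice and 0 to 1 with 1 mouse left out. For butyrate at baseline it was 0 to 5, and for the difference between the butyrate effects 0 to 3, with 1 mouse left out, the highest counts coming without baseline butyrate replicate 1. Where a group is left with 1 mouse, that mouse is assumed to vary like the others. The number of calls over all tested genes moved with these settings too.

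Under limma-voom 4 uncalled log2 fold changes turned sign: Retnla and Clec10a for butyrate at baseline (-0.19 and -0.45), Retnla for HDM in CTL mice (-0.10) and Clec10a for HDM in butyrate mice (0.26). Leaving out 1 mouse turned the sign of others, whose log2 ranges follow. For butyrate at baseline they were -0.28 to 0.092 (Arg1), -1.45 to 0.66 (Cd163), -0.016 to 2.25 (Chi3l1), -1.86 to 0.50 (Chi3l3), -1.77 to 0.90 (Clec10a), -1.59 to 0.15 (Mrc1), -0.83 to 0.076 (Nos2) and -1.84 to 1.42 (Retnla). For butyrate in lesional skin they were -0.12 to 0.20 (Arg1), -1.01 to 0.10 (Chi3l1), -0.16 to 0.36 (Nos2) and -2.40 to 0.25 (Retnla). For HDM in butyrate mice they were -2.60 to 0.13 (Arg2), -0.43 to 1.68 (Cd163), -1.07 to 1.60 (Clec10a), -0.13 to 1.71 (Mrc1), -0.036 to 0.87 (Nos2) and -2.60 to 0.66 (Retnla). For HDM in CTL mice they were -0.34 to 0.33 (Nos2) and -1.43 to 1.22 (Retnla). For the difference between the butyrate effects they were -0.059 to 0.31 (Arg1), -1.77 to 0.34 (Cd163), -1.50 to 1.17 (Clec10a), -1.28 to 0.57 (Mrc1) and -3.04 to 0.22 (Retnla). Arg1 with HDM kept its direction in both arms, at -2.08 to -1.70 and -1.92 to -1.61. The cause of these shifts was not tested.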
